A study of Rattus norvegicus with 12 samples.

Results

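Collagen chains and the enzymes that hydroxylate them were examined in endothelial cells (ECs) of the ductus arteriosus (DA) and the aorta of the rat. The genes were all those with a single gene symbol on the array that is named as a collagen chain (Col, a number, a, a number) or that begins with P4ha or Plod. This gave 31 of the 14503 genes with such a probe set. There were 25 collagen chains and 6 hydroxylases, and each gene was read from its brightest probe set. The mean signal over the 12 arrays of all 31 genes reached that of lys, a spiked control transcript used as the lower limit of signal, so that 0 genes were set aside as low.

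Pooled DA or descending aorta tissue of Wistar rats had been sorted, and the CD31-positive cells without CD45 were taken as ECs. The F group held fetuses on day 21 of gestation, before breathing, and the N group held neonates 30 minutes after birth, and both were delivered by cesarean section. The groups were DA ECs in F, aortic ECs in F, DA ECs in N and aortic ECs in N, with 3 arrays each. No group carried a transgene or a drug. The RNA on an array came from repeated sorts of many litters. A replicate is therefore such a pool, p-values measure the spread between pools, and the litter totals in the study's methods add up when both vessels of a stage were taken from the same litters. The comparisons ask how the endothelium of the DA differs from that of its neighbor vessel, and whether it changes with the first breaths.

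The DA is the fetal vessel that joins the pulmonary artery to the descending aorta. It closes after birth, and its wall is remodeled toward closure by the growth of intimal cushions rich in extracellular matrix. Collagens are wound from chains into a helix in the endoplasmic reticulum. Prolyl 4-hydroxylase, built from an alpha subunit (P4ha1, P4ha2 or P4ha3) and the shared beta subunit P4hb, hydroxylates the prolines that hold the helix together. Lysyl hydroxylases (Plod1, Plod2 and Plod3) modify lysines that later carry sugars and crosslinks. Fibrillar chains form the load-bearing fibrils, fibril-associated chains decorate their surface, and network chains form sheets such as the basement membrane under ECs.

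The genes of 2 alpha subunits, P4ha1 and P4ha2, moved in opposite directions between the vessels, and the 250 bases before their start are therefore shown, read from RefSeq on assembly GRCr8. Capitals mark ACGTG or GCGTG on either strand (CACGT or CACGC on the other strand), the core letters of the element through which low oxygen is known to act on genes. The forms ACGTG and CACGT can overlap and are then counted separately. P4ha1 lies at chr20:27844796-27845045 and P4ha2 at chr10:38743644-38743893, both on the plus strand.
P4ha1: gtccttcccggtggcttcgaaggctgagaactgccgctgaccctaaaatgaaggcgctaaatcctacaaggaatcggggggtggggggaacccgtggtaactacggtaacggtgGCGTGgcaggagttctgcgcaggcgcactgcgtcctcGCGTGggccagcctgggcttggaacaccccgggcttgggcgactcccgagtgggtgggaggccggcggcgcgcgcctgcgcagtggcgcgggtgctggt
P4ha2: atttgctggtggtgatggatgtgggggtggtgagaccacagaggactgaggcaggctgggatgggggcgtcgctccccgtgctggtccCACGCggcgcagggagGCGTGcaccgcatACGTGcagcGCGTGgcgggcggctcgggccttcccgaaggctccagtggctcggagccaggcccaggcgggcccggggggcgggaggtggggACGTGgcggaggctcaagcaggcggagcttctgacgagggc

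The P4ha1 stretch held 2 matches and the P4ha2 stretch 5. In the table of all promoters, 36.7% of 33469 held at least 1 match, 16.0% at least 2 and 1.04% at least 5. A promoter was listed for 26 of the 31 genes, and 11 of them held a match (42.3%), 5 of the 6 hydroxylases (83.3%) and 6 of the 20 chains (30.0%). Col1a1, Col2a1, Col3a1, Col12a1 and Col14a1 had no entry. A match describes the letters in this window and is not a site of binding.

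The sorts were first checked against markers. Pecam1, the gene of CD31, lay between 11.90 and 12.28 on the log2 scale in the 12 arrays. Ptprc, the gene of CD45, lay between 2.82 and 4.10 and its mean was below that of lys. The spiked lys transcript itself ranged from 3.41 to 6.17, was highest in replicate 1 and lowest in replicate 3 of every group, while the array medians ran from 5.63 to 5.76. Of the genes, 12 of 31 had their lowest value of the group in replicate 1 in all 4 groups, against 13.4% of the 18690 probe sets tested. These were Col2a1, Col4a4, Col5a3, Col6a4, Col7a1, Col8a1, Col9a2, Col10a1, Col11a1, Col11a2, Col27a1 and P4ha3. Col5a2 alone of the 31 genes was highest there in all 4 groups, against 21.0% of the probe sets.

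Markers of the cells around the endothelium differed between the vessels. Of 10 smooth muscle markers, 4 were higher in the DA over both stages (Actg2 by 1.52, Tagln by 1.03, Des by 0.73 and Acta2 by 0.58 on the log2 scale), and Myocd and Mylk were lower, by limma at an adjusted p under 0.05. The mean of that list was 7.24 to 7.43 in the DA and 7.02 to 7.06 in the aorta in F, and 7.37 to 7.68 and 7.07 to 7.09 in N. Of 10 fibroblast markers other than collagens, 8 were tested and 2 were higher in the DA (Mfap5 by 1.29 and Mfap4 by 1.22), while Lum and Fap had means below lys. Others of the list were well above it, with means over the 12 arrays of 11.28 for Postn, 10.96 for Mfap4, 9.13 for Mfap5 and 6.61 for Dcn. The rest lay nearer to lys (4.44), with means of 4.60 for Tcf21, 5.07 for Pdgfra, 5.08 for Thy1 and 5.34 for Dpt. Pdgfra, Tcf21 and Thy1 differed by 0.10, -0.19 and 0.13 over both stages and were not called. With the replicate block 6 smooth muscle and 4 fibroblast markers were higher in the DA, as Myh11, Cnn1, Dcn and Dpt were added. The mean of the fibroblast list was 6.52 to 6.68 in the DA and 6.15 to 6.43 in the aorta in F, and 6.62 to 6.73 and 6.22 to 6.35 in N. Of 13 endothelial markers, 3 were lower in the DA (Plvap, Cldn5 and Flt1), and the mean of the list was 9.72 to 9.85 against 9.91 to 10.17 in F and 9.82 to 9.90 against 10.06 to 10.10 in N. Collagen chains are made by fibroblasts and smooth muscle cells as well as by ECs, so that these values stand beside every result that follows. Their part in the results was not tested. Of the other lists, mesothelial Msln was higher over both stages (1 of 3 tested), leukocyte Cd14 (1 of 4) and cardiomyocyte Tnnt2 (1 of 5) were lower, and 0 of 3 erythroid markers and 0 of 1 Schwann cell marker were called. Erythroid Hbb differed by 0.27 in F and -1.17 in N, the latter called only with the replicate block (adjusted p = 0.039, limma). Means over the 12 arrays were 8.17 for Hbb and 8.01 for leukocyte Cd68, both above lys. In such sorted pools, fewer cells of a type and less RNA per cell cannot be told apart.

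The vessels differed in 9 of the 31 genes over both stages. P4ha1, Col5a1 and Col1a2 were higher in the DA, and P4ha2, Col8a1, Col9a1, Col1a1, Col11a1 and Col5a2 were lower (limma, adjusted p under 0.05, n = 6 arrays per vessel). The share of all 18690 probe sets called was 3.19% higher and 4.93% lower. In F alone P4ha1 was called higher and P4ha2, Col9a1 and Col8a1 lower, where 1.49% and 2.28% of the probe sets were called. In N alone P4ha1 was called higher and Col8a1 lower, where 1.26% and 1.87% were called. The median difference of the 31 genes over both stages was -0.02 on the log2 scale and that of all probe sets 0, with 14 of the genes above 0 and 17 below.

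Arrays that shared replicate number 1, or number 3, deviated together from their groups. For number 2 the correlations of 0.10 to 0.30 lay within the range between different numbers (-0.74 to 0.37). With the replicate number as a block, 3 genes were called higher and 6 lower in F, where 3.94% and 6.5% of the probe sets were called. In N these counts were 2 and 4, where 2.99% and 4.28% were called. Over both stages the block called 5 genes higher and 6 lower, where 7.71% and 10.1% of the probe sets were called. The arrays with number 2 and 3 taken alone, without the replicate 1 arrays of high lys signal, gave 5 calls over both stages, P4ha1, P4ha2, Col1a1, Col8a1 and Col9a1, and this setting was chosen after seeing the data. The share of all probe sets called in this setting was not counted, so the smaller number cannot be read as particular to these genes. In N only P4ha1 was then called, and it was also the only call there when any of the 3 aorta arrays or replicate 1 or 2 of the DA arrays in N was left out.

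**Figure D1:**
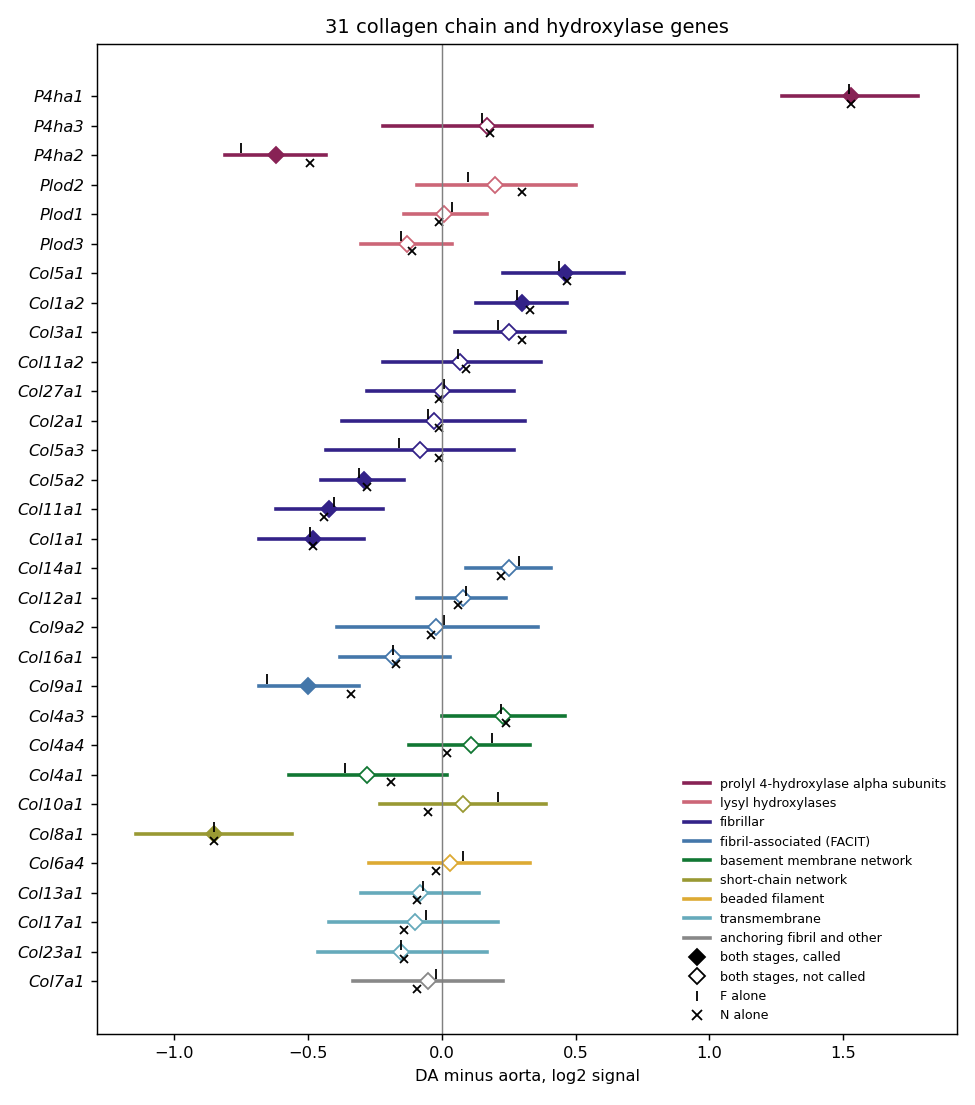
Difference in log2 signal between DA and aorta for the 31 genes, colored by the role of the gene. Diamonds are the difference over both stages with its 95% confidence interval (n = 6 arrays per vessel, filled where limma called it), ticks the difference in F alone and crosses that in N alone. P4ha1 stands at 1.53 and Col8a1 at -0.85, and the difference over both stages of the other genes lies between -0.62 and 0.46.

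P4ha1, the alpha subunit of the main prolyl 4-hydroxylase (probe set 10931308), read 9.33, 9.26 and 9.36 on the DA arrays of F and 8.11, 7.75 and 7.54 on the aorta arrays. In N it read 9.55, 9.23 and 9.20 in the DA and 8.05, 7.71 and 7.63 in the aorta. Every DA array lay above every aorta array, by more than the whole range within either vessel. The DA was higher by 1.52 on the log2 scale in F (SE 0.17, adjusted p = 0.000184, limma, 2.86-fold) and by 1.53 in N (adjusted p = 0.000213, limma, 2.89-fold). Over both stages the difference was 1.53 (95% interval 1.27 to 1.78, adjusted p = 4.14e-06, limma). The call was kept when any 1 array was left out.

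P4ha2, which encodes another alpha subunit of the same enzyme (probe set 10733564), went the other way. It read 7.24, 7.37 and 7.01 in the DA and 7.92, 8.02 and 7.94 in the aorta in F. In N it read 7.46, 7.37 and 7.18 in the DA and 7.85, 7.80 and 7.82 in the aorta. All 6 DA arrays were below all 6 aorta arrays. The difference was -0.75 in F (SE 0.12, adjusted p = 0.00334, limma) and -0.62 over both stages (SE 0.09, adjusted p = 0.0005, limma). Its value in N was -0.49 and was not called (adjusted p = 0.0535, limma), but was called with the replicate block (adjusted p = 0.00982, limma) and when replicate 3 of the DA in F was left out (adjusted p = 0.0398, limma).

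P4ha3, the third alpha subunit, ranged from 7.49 to 8.68 in the DA and from 7.59 to 8.36 in the aorta. It read 8.06, 8.27 and 8.68 in the DA and 7.89, 8.31 and 8.36 in the aorta in F. In N it read 7.49, 8.53 and 8.13 in the DA and 7.59, 7.93 and 8.09 in the aorta. The vessels overlapped at both stages. The difference over both stages was 0.17 with an interval from -0.22 to 0.56 (limma), so that a change of P4ha3 of the size seen for P4ha1 or P4ha2 lay outside its interval.

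None of the 3 lysyl hydroxylases was called. Plod1, which modifies lysines within the helix, read 10.40, 10.29 and 10.31 in the DA and 10.33, 10.34 and 10.22 in the aorta in F, and 10.25, 10.40 and 10.31 against 10.35, 10.35 and 10.29 in N. Its difference over both stages was 0.01, with an interval from -0.14 to 0.17, the narrowest bound among the hydroxylases. Plod2, which acts on the chain ends where crosslinks form, read 9.01, 9.02 and 8.93 in the DA and 9.16, 8.84 and 8.64 in the aorta in F. In N it read 9.49, 9.16 and 8.88 in the DA and 9.17, 8.89 and 8.56 in the aorta. In N the array of replicate 1 was the highest and that of replicate 3 the lowest in either vessel, and its difference over both stages was 0.20 with an interval from -0.09 to 0.50. Plod3, which also attaches sugars to hydroxylysine, read 9.74, 9.83 and 9.77 in the DA and 10.07, 9.93 and 9.79 in the aorta in F. In N it read 9.84, 9.91 and 9.78 in the DA and 9.99, 9.91 and 9.95 in the aorta. Its arrays overlapped in F, and in N the highest DA array and the lowest aorta array both read 9.91, with the DA lower beyond the printed decimals. The difference of Plod3 over both stages was -0.13 with an interval from -0.30 to 0.04.

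**Figure D2:**
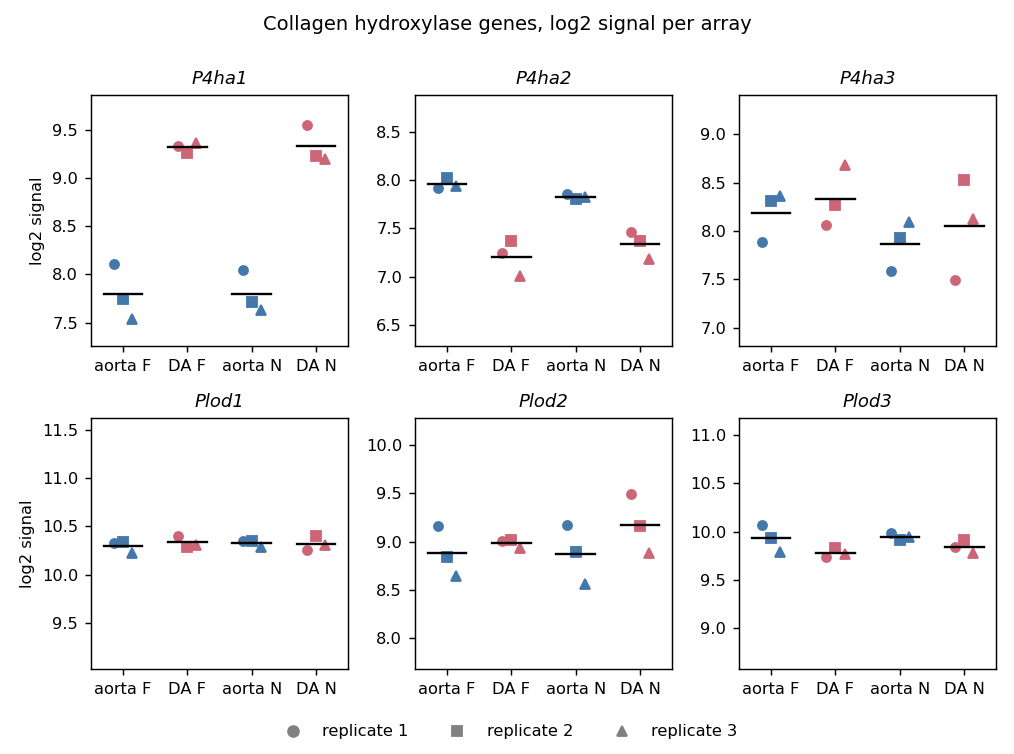
Log2 signal of the 3 P4ha and 3 Plod genes on each of the 12 arrays (vertical axes of equal span), with the mean of each group of 3 as a bar and the replicate number as the symbol. DA arrays of P4ha1 lie between 9.20 and 9.55 and aorta arrays between 7.54 and 8.11, and P4ha2 is reversed. The other 4 genes overlap between the vessels when the stages are pooled, while Plod3 was narrowly lower on all DA arrays in N.

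Among the 10 fibrillar chains, 2 were called higher and 3 lower in the DA over both stages, and none in F or N alone. The genes of the 2 chains of type I collagen, the main fibril of the arterial wall, were split. Col1a1 (probe set 10737532) read 11.13, 11.06 and 10.76 in the DA and 11.49, 11.51 and 11.41 in the aorta in F. In N it read 11.18, 10.95 and 10.93 in the DA and 11.59, 11.41 and 11.48 in the aorta. No DA array reached the lowest aorta array. The difference was -0.48 over both stages (SE 0.09, adjusted p = 0.00453, limma), a 1.4-fold lower signal. In F it was -0.49 (adjusted p = 0.0587, limma) and in N -0.48 (adjusted p = 0.0734, limma), and with the replicate block both were called (adjusted p = 0.00781 and 0.0105, limma).

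Col1a2 (probe set 10853559) read 11.29, 11.23 and 11.03 in the DA and 10.81, 10.96 and 10.94 in the aorta in F. In N it read 11.24, 11.22 and 11.19 in the DA and 10.86, 10.86 and 10.95 in the aorta. All DA arrays were above all aorta arrays, the nearest being DA replicate 3 of F. The difference was 0.30 over both stages (SE 0.08, adjusted p = 0.0287, limma), and 0.28 in F and 0.33 in N, where it was not called (adjusted p = 0.26 and 0.189, limma). The call ended at adjusted p of 0.0503 to 0.077 (limma) when any 1 of 9 arrays was left out, namely replicates 1, 2 and 3 of the aorta in F and replicates 1 and 2 of each of the other 3 groups.

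Of the type V chains, which set the width of type I fibrils, Col5a1 was higher and Col5a2 lower in the DA. Col5a3 was not called. The order was the reverse of that in type I, where Col1a1 was the lower and Col1a2 the higher. Col5a1 (probe set 10834731) read 8.29, 8.39 and 8.52 in the DA and 7.76, 8.12 and 8.00 in the aorta in F. In N it read 8.31, 8.43 and 8.67 in the DA and 7.90, 7.88 and 8.21 in the aorta. The 6 DA arrays were above the 6 aorta arrays, with 8.29 as the lowest and 8.21 as the highest of the respective vessel. The difference was 0.46 over both stages (SE 0.10, adjusted p = 0.0151, limma), 0.44 in F and 0.47 in N. The single stages were not called (adjusted p = 0.158 and 0.142, limma) except with the replicate block (adjusted p = 0.0167 and 0.0136, limma), and with replicates 2 and 3 alone the value over both stages was 0.45 (adjusted p = 0.0673, limma).

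Col5a2 (probe set 10927728) was lower in the DA. It read 8.61, 8.55 and 8.51 in the DA and 8.92, 8.88 and 8.79 in the aorta in F. In N it read 8.63, 8.58 and 8.54 in the DA and 8.94, 8.84 and 8.80 in the aorta. The spread within each group was small and the vessels did not overlap. The difference was -0.29 over both stages (SE 0.07, adjusted p = 0.0237, limma), -0.31 in F (adjusted p = 0.152, with the replicate block 0.0315, limma) and -0.28 in N (adjusted p = 0.259, limma). The call over both stages ended at adjusted p of 0.052 to 0.0735 (limma) when any 1 of 8 arrays was left out, namely replicates 1 and 2 of either aorta group and replicates 2 and 3 of either DA group. In the RefSeq annotation Col5a2 is the neighbor of Col3a1, whose difference had the other sign.

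Col11a1, whose chain is close kin to those of type V and is best known from cartilage, was lower in the DA (probe set 10818502). It read 6.22, 6.40 and 6.26 in the DA and 6.58, 6.72 and 6.77 in the aorta in F. In N it read 6.20, 6.35 and 6.37 in the DA and 6.59, 6.67 and 6.99 in the aorta. The DA arrays ended at 6.40, below the lowest aorta array. The difference was -0.42 over both stages (SE 0.09, adjusted p = 0.0118, limma), and -0.40 in F and -0.44 in N without a call (adjusted p = 0.145 and 0.11, limma). The replicate block called both (adjusted p = 0.0253 and 0.0175, limma), and with replicates 2 and 3 alone the value over both stages was -0.44 (adjusted p = 0.0537, limma).

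Col3a1, the chain of type III collagen that accompanies type I in distensible tissue, read 8.54, 8.29 and 8.22 in the DA and 8.19, 8.19 and 8.05 in the aorta in F. In N it read 8.67, 8.31 and 8.54 in the DA and 8.30, 8.12 and 8.20 in the aorta. Within each stage the DA arrays were above the aorta arrays, while a DA array of F lay below an aorta array of N. The difference of 0.25 over both stages (SE 0.09) was not called (adjusted p = 0.144, limma) but was called with the replicate block (adjusted p = 0.0278, limma). The other fibrillar chains, Col2a1, Col5a3, Col11a2 and Col27a1, lay between -0.08 and 0.07 over both stages, and their intervals reached from -0.43 to 0.37.

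**Figure D3:**
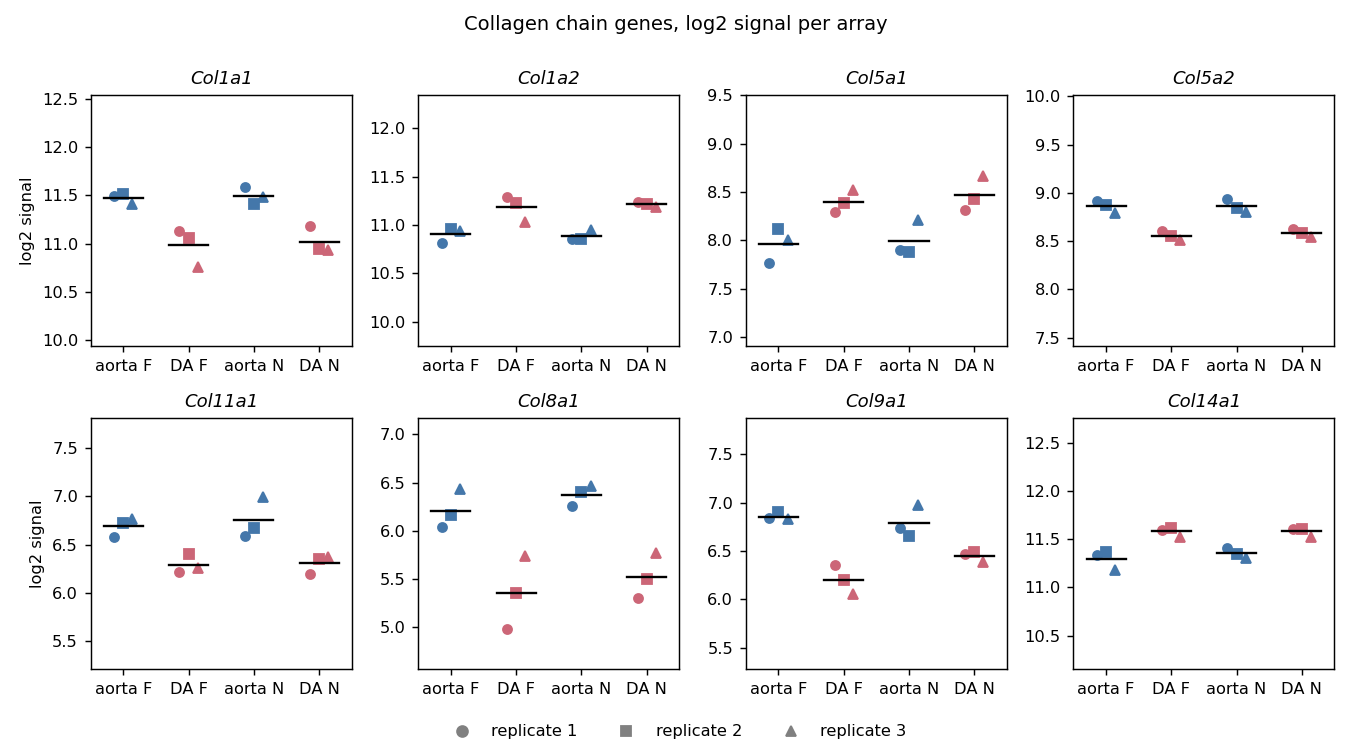
Log2 signal of 8 collagen chain genes on each of the 12 arrays (vertical axes of equal span), with the group mean as a bar. Col1a2, Col5a1 and Col14a1 are higher on all 6 DA arrays and Col1a1, Col5a2, Col11a1, Col8a1 and Col9a1 on all 6 aorta arrays. Col14a1 was not called over both stages.

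For 3 pairs of related genes, picked after their values were seen because both members had been called in opposite directions, the 2 genes were set against each other within an array, as a description with no test. P4ha1 and P4ha2 encode alternative alpha subunits, while the other pairs encode chains of the same collagen type. Pairs without such opposite calls, such as Col9a1 with Col9a2 and Col4a3 with Col4a4, were not set out in this way. The level of this difference depends on the probes, so that only its shift between the vessels can be read. P4ha1 minus P4ha2 was 1.86 to 2.35 on the 6 DA arrays and -0.40 to 0.20 on the 6 aorta arrays, a shift of 2.15 on the log2 scale. Col1a1 minus Col1a2 was -0.28 to -0.06 in the DA and 0.47 to 0.73 in the aorta, a shift of -0.78. Col5a1 minus Col5a2 was -0.33 to 0.13 in the DA and -1.16 to -0.59 in the aorta, a shift of 0.75. Since the 6 genes were each separated between the vessels, in opposite directions within a pair, these differences could not overlap, and that adds nothing to the single genes. A scaling of a whole array cancels in such a difference.

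**Figure D4:**
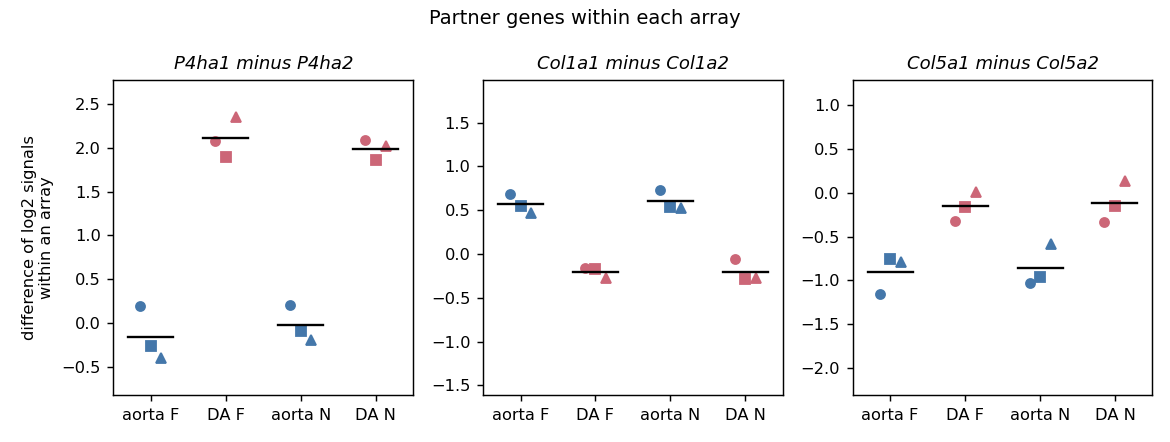
Difference in log2 signal between 2 related genes within each of the 12 arrays, for P4ha1 and P4ha2, Col1a1 and Col1a2, and Col5a1 and Col5a2, with the group mean as a bar (circles replicate 1, squares replicate 2, triangles replicate 3). The mean shifts from aorta to DA by 2.15, -0.78 and 0.75.

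Col8a1, a short-chain network collagen found in the intima of vessels, was the chain with the largest difference over both stages among the 25 (probe set 10750685). It read 4.98, 5.36 and 5.74 in the DA and 6.04, 6.16 and 6.43 in the aorta in F. In N it read 5.31, 5.50 and 5.77 in the DA and 6.26, 6.40 and 6.46 in the aorta. Replicate 1 was the lowest and replicate 3 the highest of all 4 groups. On 2 arrays the signal was below that of lys on the same array, and both were DA arrays. These were replicate 1 of the DA in F (4.98 against 6.17) and in N (5.31 against 5.78). The DA was lower by 0.85 in F (SE 0.19, difference -0.85, adjusted p = 0.0244, limma), in N (difference -0.85, adjusted p = 0.029, limma) and over both stages (difference -0.85, SE 0.13, adjusted p = 0.00134, limma). The call in F ended at adjusted p of 0.0733 to 0.111 (limma) without replicate 2 or 3 of the aorta or replicate 1 or 2 of the DA, and at 0.0656 when the 6 arrays of F were fitted alone. The call in N ended at 0.0681 to 0.12 (limma) without any of the 3 aorta arrays or without replicate 1 or 2 of the DA. The call over both stages was kept when any 1 array was left out. Col10a1, the other short-chain gene and a chain of growth cartilage, differed by 0.08 over both stages (interval -0.23 to 0.39) and lay below lys of the same array on 5 arrays.

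Of the 5 fibril-associated chains, 1 was called. Col9a1, a chain of the collagen that coats cartilage fibrils (probe set 10922192), read 6.36, 6.20 and 6.05 in the DA and 6.84, 6.90 and 6.83 in the aorta in F. In N it read 6.47, 6.49 and 6.39 in the DA and 6.74, 6.66 and 6.98 in the aorta. The arrays of the vessels were separated at both stages, more widely in F. The difference was -0.65 in F (SE 0.12, adjusted p = 0.00773, limma), -0.34 in N (adjusted p = 0.227, limma) and -0.50 over both stages (SE 0.09, adjusted p = 0.0025, limma). The difference between the stages was 0.31 (interval -0.07 to 0.68, adjusted p = 1, limma) and was not called. Its partner chain Col9a2 differed by -0.02 over both stages (interval -0.39 to 0.36).

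Col14a1, which binds the surface of type I fibrils, read 11.60, 11.62 and 11.52 in the DA and 11.34, 11.37 and 11.18 in the aorta in F. In N it read 11.61, 11.61 and 11.52 in the DA and 11.41, 11.35 and 11.31 in the aorta. All 6 DA arrays were above all 6 aorta arrays. The difference of 0.25 over both stages (SE 0.07) was not called (adjusted p = 0.0536, limma), but was called with the replicate block (adjusted p = 0.0098, limma), and in F the block also called its 0.29 (adjusted p = 0.0449, limma). Col12a1 differed by 0.08 and Col16a1 by -0.18 over both stages, and neither was called.

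The basement membrane chains with a named probe set were Col4a1, Col4a3 and Col4a4, and none was called. Col4a1, the common chain under vascular endothelium, read 6.56, 6.64 and 6.53 in the DA and 6.56, 7.41 and 6.85 in the aorta in F. In N it read 6.60, 6.71 and 6.92 in the DA and 6.73, 7.12 and 6.94 in the aorta. The aorta array of replicate 2 was the highest of each stage. The difference over both stages was -0.28 (interval -0.57 to 0.02, adjusted p = 0.319, limma). Col4a3 and Col4a4, which neighbor each other in the genome and are best known from kidney basement membrane, differed by 0.23 (interval 0 to 0.46, adjusted p = 0.268, limma) and 0.11 (interval -0.12 to 0.33, adjusted p = 0.716, limma). Col6a4 of the beaded filaments differed by 0.03, the transmembrane chains Col13a1, Col17a1 and Col23a1 by -0.08, -0.10 and -0.15, and the anchoring fibril chain Col7a1 by -0.05, and none was called. Of its 3 probe sets Col6a4 was read from the one between 5.30 and 6.08. On at least 1 array, Col4a3, Col4a4, Col5a3, Col6a4, Col7a1, Col9a2, Col13a1, Col16a1 and Col17a1 were also below lys of the same array, which limits what their signals can show.

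The separation of the arrays was counted for all 31 genes. In F the DA arrays were all above the aorta arrays for 5 genes and all below for 6, where 7.73% and 10.9% of the probe sets did so. In N these numbers were 6 and 7, where the shares were 6.98% and 8.3%. With 6 arrays against 6, the DA was above for Col1a2, Col5a1, Col14a1 and P4ha1, against 2.91% of the probe sets. It was below for Col1a1, Col5a2, Col8a1, Col9a1, Col11a1 and P4ha2, against 4.07% of the probe sets. These 10 genes held their order in F and in N alike. Col3a1 did so within each stage, and Col12a1 (DA above) and Plod3 (DA below) were separated in N only.

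The comparison of N with F asked whether the genes changed within 30 minutes of birth. None of the 31 genes was called by limma in either vessel, with or without the replicate block, and none had an unadjusted p under 0.05. Of all probe sets 0.00535% were called in the DA, which is 1 probe set, and 0% in the aorta, while 375 and 257 had an unadjusted p under 0.05. The replicate block called 0.0535% and 0.0161%. The methods' t-test gave 0 of the 31 genes at an unadjusted p under 0.05 in the DA, 1 in the aorta, and 0 after adjustment in either vessel, where 425 and 382 of the probe sets had an unadjusted p under 0.05 by that test and 0 passed after adjustment. In the DA, P4ha1 differed by 0.01 between N and F, P4ha2 by 0.13, Col1a1 by 0.04 and Col8a1 by 0.17, and none of these was called. The 2 ends of the range there were Col9a1 at 0.24 and P4ha3 at -0.28, and P4ha3 differed by -0.32 in the aorta. The vessel differences in N and in F share no arrays, and their difference was 0.01 for P4ha1 (interval -0.50 to 0.53), 0.26 for P4ha2 (interval -0.11 to 0.64) and 0 for Col8a1 (interval -0.58 to 0.59). No gene was called for that difference, with 0% of the probe sets called, 0 of the 31 genes at an unadjusted p under 0.05 and 174 probe sets so.

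Other genes of the collagen pathway were read from a list of 47, of which 40 had a named probe set and 37 were tested. Over both stages 5 were higher in the DA and 2 lower, where the shares over all probe sets are the 3.19% and 4.93% given above, and the median difference of the 37 was 0.01. With the replicate block these counts were 8 and 5, where 7.71% and 10.1% of the probe sets were called. The block added P3h2, Dcn and Nid2 as higher and Lox, Sparc and Ogn as lower.

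Among the genes that cut propeptides off the secreted chains, Adamts2, the main N-propeptidase of fibrillar collagens, read 10.82, 10.64 and 10.62 in the DA and 9.49, 9.46 and 9.34 in the aorta in F. In N it read 10.84, 10.74 and 10.76 in the DA and 9.60, 9.42 and 9.73 in the aorta. The vessels were far apart on every array. The difference was 1.23 over both stages (SE 0.08, adjusted p = 1.31e-06, limma), 1.27 in F and 1.20 in N. Adamts3, a relative that also cuts N-propeptides, ranged from 8.42 to 8.73 in the DA and from 8.99 to 9.40 in the aorta, a difference of -0.66 (adjusted p = 0.000292, limma). The third such enzyme, Adamts14, differed by 0.01 and was not called. Pcolce, which enhances C-propeptide removal by Bmp1, differed by 0.48 (adjusted p = 0.0138, limma).

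Of the 5 lysyl oxidases, which crosslink collagen and elastin, Loxl1 was higher by 0.54 (adjusted p = 0.00264, limma) and Loxl2 by 0.54 (adjusted p = 0.00956, limma), and Lox differed by -0.19 without a call. Of 12 other hydroxylases and chaperones of the endoplasmic reticulum that were tested, only P3h1, a prolyl 3-hydroxylase, was called, with a difference of 0.48 (adjusted p = 0.00175, limma). Colgalt2 and Mia3 of that list had no named probe set and were not read here. The study lists Glt25d2, an older symbol of Colgalt2, among the genes more than 2-fold higher in the DA at both stages. Its list also holds P4ha1 and Adamts2, and the markers Mfap4, Mfap5 and Actg2. P4hb, the beta subunit that all 3 P4ha chains share, differed by 0.07, and Serpinh1, the collagen chaperone, by 0.06, and neither was called. Of 7 receptors, Itga1, the alpha chain of a collagen-binding integrin, was lower in the DA by 0.79 (difference -0.79, adjusted p = 0.000368, limma). None of the 6 fibril-binding matrix proteins and of the 2 basement membrane partners was called.

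**Figure D5:**
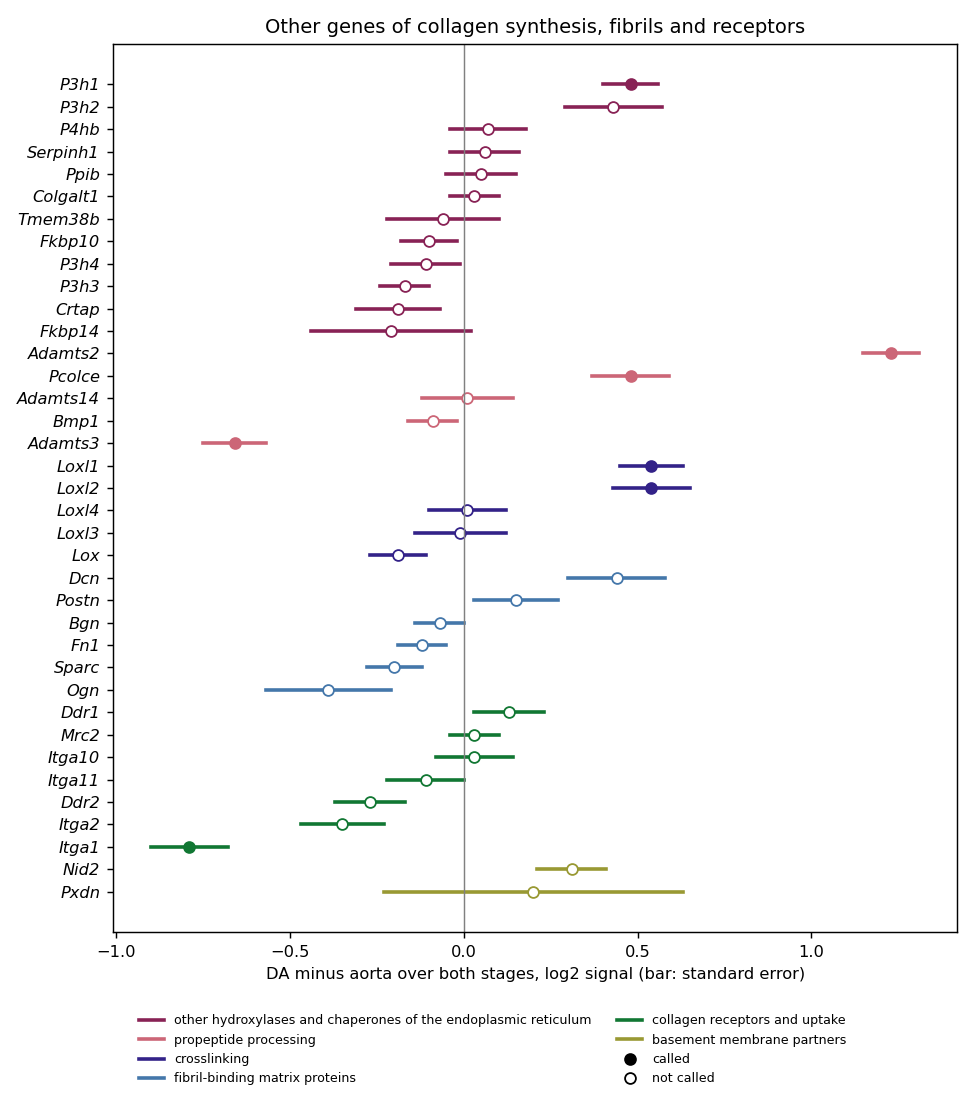
Difference in log2 signal between DA and aorta over both stages for 37 other genes of the collagen pathway, with the standard error as a bar (n = 6 arrays per vessel) and filled points where limma called the gene. Adamts2 stands at 1.23 and Itga1 at -0.79, and 30 of the 37 genes were not called.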

How the data were processed

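RNA of ECs sorted from the DA and the aorta was hybridized to 12 Rat Gene 1.0 ST arrays. The table deposited by the authors holds a log2 signal for each probe set, with the method of summarising and normalizing not given in the sources used here. Precision is limited by the number of arrays. Symbols were taken from the platform annotation, where 15307 of 26468 probe sets had 1 symbol, 323 several and 10838 none, and 0 changed on update through RefSeq. Tests were run on the 18690 probe sets with a mean at or above that of the lys spike (4.44).

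One mean per group was fitted to all 12 arrays with limma 3.58.1 in R 4.3.3, and p-values were adjusted by Benjamini-Hochberg over the 18690 probe sets, with calls under 0.05. The DA was compared with the aorta in N, in F and over both, N with F in each vessel, and the vessel differences between the stages. The procedure was tested on simulated data. Array deviations from the group means correlated at 0.54 to 0.82 for replicate number 1, 0.10 to 0.30 for number 2 and 0.39 to 0.74 for number 3, against -0.74 to 0.37 between numbers, so a fit with the number as a block was added, with its meaning not given in the sources used here.

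Genes and lists were chosen with earlier results of these data known. Values per array are given for the called collagen and hydroxylase genes, the other hydroxylases, Col3a1 and Col4a1, and also for Col14a1 and Adamts2, chosen after their values were seen. Other called pathway genes are given by their differences. Of the chains listed by role, 20 had no named probe set and were not analysed here, among them Col4a2, Col15a1 and Col18a1. Alternatives were the replicate block, the methods' t-test, other filters, other normalizations, a variance trend, the mean over probe sets of a gene, the compared groups alone, leaving out each array, and, added later, replicates 2 and 3 alone.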

Additional observations from a re-analysis of the deposited data

How the results depend on the processing

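The 9 calls over both stages became 1 with the methods' t-test and cutoffs (2-fold and an unadjusted p under 0.05), where P4ha1 alone passed, 5 with replicates 2 and 3 alone, and 7 to 9 with 1 array left out. They became 11 with the replicate block, 10 with a stricter filter and 10 with a variance trend. With Benjamini-Hochberg adjustment in place of the cutoffs, the methods' t-test called 10 of the 31 genes and 1789 of all probe sets over both stages. The 4 calls in F became 9 with the replicate block, 1 with the 2-fold t-test and 3 to 4 with 1 array left out. The 2 calls in N became 6 with the replicate block, 4 with a variance trend, 1 with the 2-fold t-test, 1 with replicates 2 and 3 alone and 1 to 3 with 1 array left out. After Benjamini-Hochberg adjustment the methods' t-test called 0 of the 31 genes in F and 0 in N, where 10 and 11 had an unadjusted p under 0.05. Of the 18690 probe sets, 2226 and 1852 did so, and 67 and 44 passed after adjustment. The 7 calls among other pathway genes became 13 with the block, 1 with the 2-fold t-test and 7 to 8 with 1 array left out. Shares of all probe sets were not counted for the 2-fold t-test, the filters, the variance trend or any subset of arrays. Those counts therefore cannot be read as particular to the collagen genes. Without the filter on low probe sets, Col1a2 (adjusted p = 0.0574, limma) and Col5a2 (adjusted p = 0.051, limma) lost their calls over both stages, and quantile normalization ended that of Col1a2 (adjusted p = 0.0674, limma). The cause was not tested. None of the called genes among the 31 changed sign under any of these alternatives, and the signs of the other pathway genes were not followed. The block changed no call of the 31 genes other than those given with their values above. For N against F and for the difference of the vessel contrasts, each limma alternative that was run called 0 of the 31 genes. Signals near that of lys limit what the dim chains can show.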
